A study of Rattus norvegicus with 6 samples.

Results

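The natriuretic peptide system was followed through 7 genes: the peptide genes Nppa, Nppb and Nppc, the receptor genes Npr1, Npr2 and Npr3, and Corin, the gene of the protease that activates the atrial peptide. They were chosen by gene symbol, and all 7 were among the 17089 genes of the deposited table. The cells were neonatal rat ventricular myocytes, primary cultures from the ventricles of Sprague Dawley rats of postnatal day 1 to 3, kept on fibronectin with 10% serum at first and 2% serum from day 3. The 3 control cultures received Ad-GFP, an adenovirus that carries green fluorescent protein, and the 3 others received Ad-Tbx18-IRES-GFP, which adds the T-box transcription factor Tbx18. Both viruses were given on the day of isolation, GFP was therefore shared by all 6 cultures, and RNA was taken on day 4. The column headers mark all 6 as unpace. The groups are called GFP and Tbx18 below. The promoter that drives the transgene is not given in the sources used here, and such primary cultures also hold non-muscle cells of the ventricle.

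Natriuretic peptides are hormones that the heart secretes when its walls are stretched; they promote salt and water excretion and relax blood vessels. Atrial natriuretic peptide, from Nppa, and brain natriuretic peptide, from Nppb, come mainly from heart muscle cells, while C-type natriuretic peptide, from Nppc, comes largely from endothelium and other tissues. Their precursors are cut by proteases such as corin and furin, the active peptides raise cyclic GMP through the guanylyl cyclase receptors encoded by Npr1 and Npr2, and the receptor encoded by Npr3, which has no cyclase, removes them from the circulation. Nppa and Nppb are active in the fetal and newborn ventricle and are widely used as markers of heart muscle state.

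The cardiac peptide genes fell, whereas the corin gene and the genes of 2 receptors rose. Nppa and Nppb were 3.28-fold and 6.70-fold lower in Tbx18 than in GFP. Npr3, Corin and Npr1 were 3.88-fold, 2.70-fold and 2.05-fold higher. Npr2 did not pass the test, and Nppc had too few reads to be tested. Of the 6 members tested, 2 were called lower and 3 higher at a limma adjusted p under 0.05, against 23.5% and 22.5% of all 11230 tested genes, together 46.0%. A call was thus common among all genes. The libraries of the groups did not overlap for any of the 6, 4 higher and 2 lower in Tbx18, which held for 28.6% of all tested genes in each direction and 57.2% together.

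**Figure D1:**
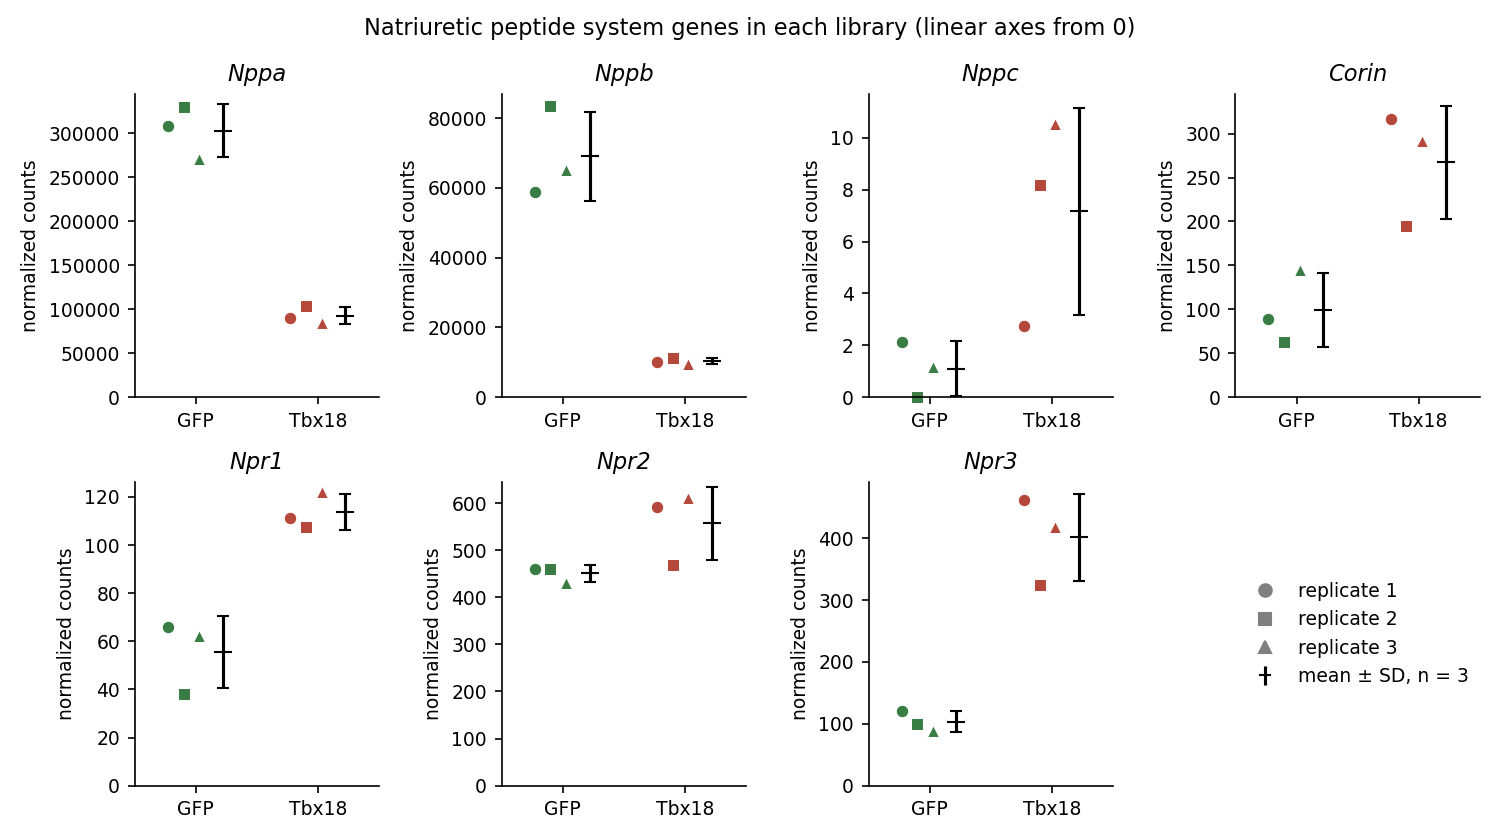
Normalized counts of the 7 genes in each library, on linear axes that start at 0, for 3 GFP (green) and 3 Tbx18 (red) cultures; symbols are replicates and black bars the mean ± SD. Nppa and Nppb sit far lower in every Tbx18 library, whereas Corin, Npr1 and Npr3 sit higher in every Tbx18 library, and the nearest libraries of the groups lie close together for Npr2 (461 and 468 counts).

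Values are normalized counts, that is read counts divided by 1 size factor per library, given as the mean ± SD over 3 libraries; folds are ratios of means and log2 fold changes are on the scale of log2(normalized count + 1). Each library held 17074483 to 19800300 gene-assigned reads. Tbx18 itself lay at 268 to 312 counts in GFP and at 5937 to 6236 in Tbx18, so each library matched its label. The labels do not say whether replicates came from separate isolations, so the p-values speak only for the scatter among the 6 libraries, which may be technical scatter. That spread was wider in GFP (median SD of the log2 values 0.17) than in Tbx18 (0.10). When libraries were scaled to equal reads, the median log2 fold change of all tested genes was 0.27 in place of 0.01 and 4770 genes were called higher and 1351 lower, in place of 2525 and 2639.

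The normalized count of Nppa was 307929, 329400.4 and 270623 in GFP replicates 1 to 3, against 89829, 102993 and 84034 in the Tbx18 replicates. The highest Tbx18 library therefore lay well below the lowest GFP library. The means were 302651 ± 29742 and 92285 ± 9715 (log2 fold change -1.71, SE 0.15, limma adjusted p = 3.00e-05), lower in 3 of 3 libraries. The share of all gene-assigned reads that came from Nppa was 1.45% ± 0.136 (SD, n = 3) in GFP and 0.531% ± 0.0534 in Tbx18. After quantile normalization the log2 fold change was -1.01, a smaller change that was still called (limma adjusted p = 0.000318). Of the 11230 genes tested, 93 had a lower log2 fold change than Nppa. In bulk RNA such as this, fewer cells of a type and less RNA per cell cannot be told apart.

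Nppb fell further. The 3 GFP libraries held 58713, 83403 and 65197 normalized counts and its Tbx18 libraries 10056, 11290.2 and 9582. The GFP values were spread, with replicate 2 highest, but even the lowest of them was far above every Tbx18 value. The means were 69104 ± 12800.4 and 10309 ± 882 (log2 fold change -2.73, SE 0.14, limma adjusted p = 2.27e-06). Nppb took 0.330% ± 0.0503 (SD, n = 3) of reads in GFP and 0.0593% ± 0.00479 in Tbx18. Only 15 of the 11230 genes tested had a lower log2 fold change.

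The balance between the cardiac peptide genes shifted as well. Within each library, where scaling cancels, there were 19.1, 25.3 and 24.1 counts of Nppb per 100 counts of Nppa in GFP and 11.2, 11.0 and 11.4 in Tbx18. The groups did not overlap, and the Tbx18 libraries were nearly alike. The mean ratio was 22.8 ± 3.31 in GFP and 11.2 ± 0.220 in Tbx18 (SD, n = 3), a log2 difference of -1.02. An exact two-sided permutation test over libraries gave p = 0.1, the smallest value that 3 against 3 libraries allow, so this test cannot reach the threshold of 0.05. The ratio compares the groups and is not a ratio of transcript numbers, because gene length was not taken into account.

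Nppc was barely detected. Only 2, 0 and 1 reads were assigned to it in GFP, with 3, 8 and 12 in Tbx18, and its mean fell below the minimum of 10 normalized counts. Every Tbx18 library had more reads than any GFP library, but Tbx18 replicate 1 had only 1 read more than GFP replicate 1. The ratio of all reads, 23 in Tbx18 to 3 in GFP after correction for library size, was 6.27 with an exact 95% interval of 1.89 to 32.6, which covers counting error only. With no filter on low values it was called higher (log2 fold change 1.96, limma adjusted p = 0.0200).

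Nppa and Nppb lie next to each other in the reference gene order, and their promoters are shown because both genes fell and because the vector carries a T-box factor, a family whose members bind a short shared motif. RefSeq promoter sequences of build GRCr8 were matched by symbol for 6 of the 7 members. Each window runs from 250 bases before to 50 bases after the start the table gives, and the bases before the start are printed for Nppa (plus strand, chr5:163711934-163712183) and Nppb (plus strand, chr5:163699758-163700007). Capitals mark matches to the motifs searched, lower case is all other sequence. No source used here names the genome build of the deposited counts; the positions describe the reference windows only.
Nppa: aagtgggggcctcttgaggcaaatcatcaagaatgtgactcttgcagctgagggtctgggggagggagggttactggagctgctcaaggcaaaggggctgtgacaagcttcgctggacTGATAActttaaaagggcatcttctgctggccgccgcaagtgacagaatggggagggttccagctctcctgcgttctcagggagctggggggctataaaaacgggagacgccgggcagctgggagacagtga
Nppb: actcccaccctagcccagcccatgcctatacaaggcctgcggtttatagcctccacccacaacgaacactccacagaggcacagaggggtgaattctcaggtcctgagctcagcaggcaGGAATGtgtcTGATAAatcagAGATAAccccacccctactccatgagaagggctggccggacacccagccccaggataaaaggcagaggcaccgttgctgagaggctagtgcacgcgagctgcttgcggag
Both strands of the whole windows were searched for GGTGTGA (the T-box core), TNAAGTG (the Nkx2-5 site), AGATAA (the site bound by Gata4), TGATAA (its variant), CATTCC (the TEAD site), TGANTCA (AP-1) and the CArG box of serum response factor. In Nppa the match was TGATAA, starting 132 bases before the start. In Nppb the matches were GGAATG, the reverse complement of CATTCC, at 131 bases, TGATAA at 121 bases and AGATAA at 110 bases before the start. Of 33469 promoters of the same length, 9.03% held TGATAA, 11.6% AGATAA and 14.2% CATTCC. The T-box core, held by 3.83% of them, and the Nkx2-5 site, held by 11.5%, had no match in either window. These are matches of letters in a short window, not sites shown to be bound. Only exact matches were counted, so sites that differ from these letters were missed. Sites cut by the edge of a window were missed as well. The Nppa window opens with AAGTG, the last letters of TNAAGTG, and the bases before it were not searched. A motif without a match is therefore not a site shown to be absent.

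Corin, the membrane protease of heart muscle cells that cuts the precursor of atrial natriuretic peptide, was higher in Tbx18. GFP replicates 1 to 3 held 89.4, 63.0 and 145 normalized counts, and Tbx18 replicates 317, 195 and 291. The lowest Tbx18 library, replicate 2, stood above the highest GFP library, replicate 3, with a wide spread in both groups. The means were 99.1 ± 41.9 and 268 ± 64.4 (log2 fold change 1.48, SE 0.29, limma adjusted p = 0.00264), higher in 3 of 3 libraries. Of the genes tested, 474 had a higher log2 fold change.

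Npr1, the guanylyl cyclase receptor of the atrial and brain peptides, rose from 66.0, 38.3 and 62.1 normalized counts in GFP to 111, 108 and 122 in Tbx18. GFP replicate 2 was the lowest library, and every Tbx18 library exceeded every GFP library. The means were 55.5 ± 15.0 and 114 ± 7.48 (log2 fold change 1.06, SE 0.23, limma adjusted p = 0.00403).

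Npr2, the cyclase receptor of the C-type peptide, was read at 461, 461 and 430.3 normalized counts in GFP and at 591, 468 and 612 in Tbx18. Tbx18 replicate 2 lay next to the GFP libraries and the other Tbx18 libraries lay above them. The means were 451 ± 17.5 and 557 ± 77.6, a log2 fold change of 0.30 (SE 0.12, 95% interval 0.03 to 0.57) that was not called (limma adjusted p = 0.0695). The fold interval ran from 1.02 to 1.48, so the data do not show that Npr2 was unaffected. It was called higher without Tbx18 replicate 2 (log2 fold change 0.42, limma adjusted p = 0.0239), with equal reads (0.56, adjusted p = 0.00464) and with upper-quartile scaling (0.37, adjusted p = 0.0326). The adjusted p spanned 0.00464 to 0.228 across its 19 alternatives.

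Npr3, the clearance receptor, showed the largest rise among the members tested. The GFP cultures gave 121, 100.0 and 88.6 normalized counts, and the Tbx18 cultures 461, 324 and 419. The groups were far apart. The means were 103 ± 16.6 and 401 ± 70.3 (log2 fold change 1.94, SE 0.17, limma adjusted p = 3.40e-05). Of the genes tested, 258 had a higher log2 fold change. Beside Npr1, there were 184, 261 and 143 counts of Npr3 per 100 counts of Npr1 in GFP, as against 414, 301 and 343 in Tbx18. The ratio was higher in every Tbx18 library (196 ± 60.3 against 353 ± 57.2, log2 difference 0.88), with an exact two-sided permutation p = 0.1, again the smallest possible. Only 62, 31 and 54 reads were assigned to Npr1 in GFP, so counting error weighs on these ratios. The nearest libraries, replicate 2 of each group, lay at 261 and 301.

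For the members that rose, the promoters of Npr3 (minus strand, chr2:62658766-62659015) and Corin (plus strand, chr14:36035316-36035565) are printed from the same RefSeq table to set beside those of the peptide genes. Neither holds an exact match to any of the motifs searched, and so neither sequence has capitals.
Npr3: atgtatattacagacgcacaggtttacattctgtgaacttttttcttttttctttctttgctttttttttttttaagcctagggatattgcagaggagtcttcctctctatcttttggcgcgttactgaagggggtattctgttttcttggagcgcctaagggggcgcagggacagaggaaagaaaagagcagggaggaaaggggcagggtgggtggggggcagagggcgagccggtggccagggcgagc
Corin: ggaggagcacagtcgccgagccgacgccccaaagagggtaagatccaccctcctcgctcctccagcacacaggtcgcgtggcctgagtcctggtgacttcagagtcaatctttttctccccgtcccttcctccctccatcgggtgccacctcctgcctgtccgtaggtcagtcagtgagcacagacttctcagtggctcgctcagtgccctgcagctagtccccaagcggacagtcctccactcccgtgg
The windows of Npr1 and Nppc had no match either. GC content of the bases before the start was 57.2% in Nppa and 58.0% in Nppb, and 49.6% in Npr3, 62.4% in Corin and 68.8% in Npr1.

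**Figure D2:**
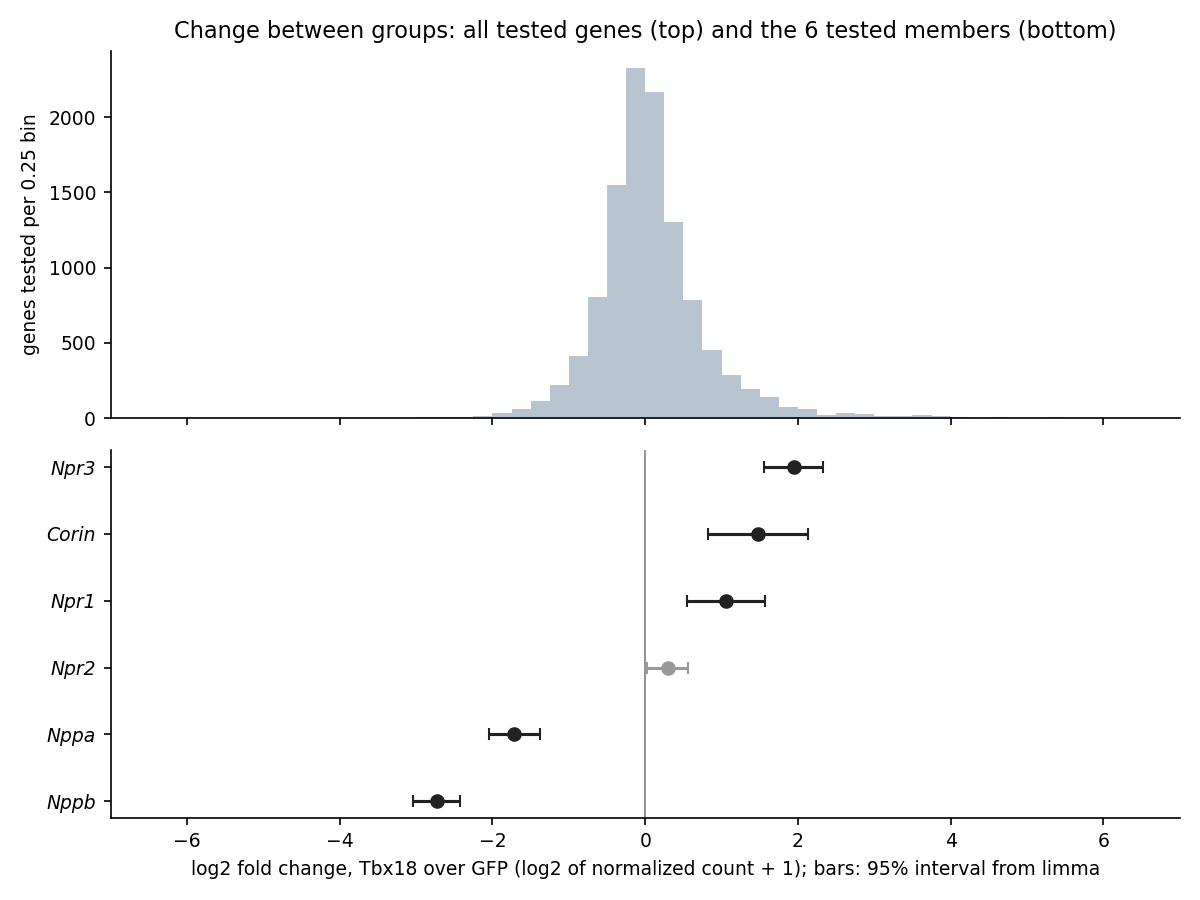
Top, number of tested genes per bin of log2 fold change, Tbx18 over GFP; bottom, log2 fold changes of the 6 tested members with 95% intervals from limma, black where called and grey where not. Nppb (-2.73) and Nppa (-1.71) lie in the lower tail of all genes, Npr3 (1.94), Corin (1.48) and Npr1 (1.06) in the upper tail, and Npr2 (0.30) near the middle.

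**Figure D3:**
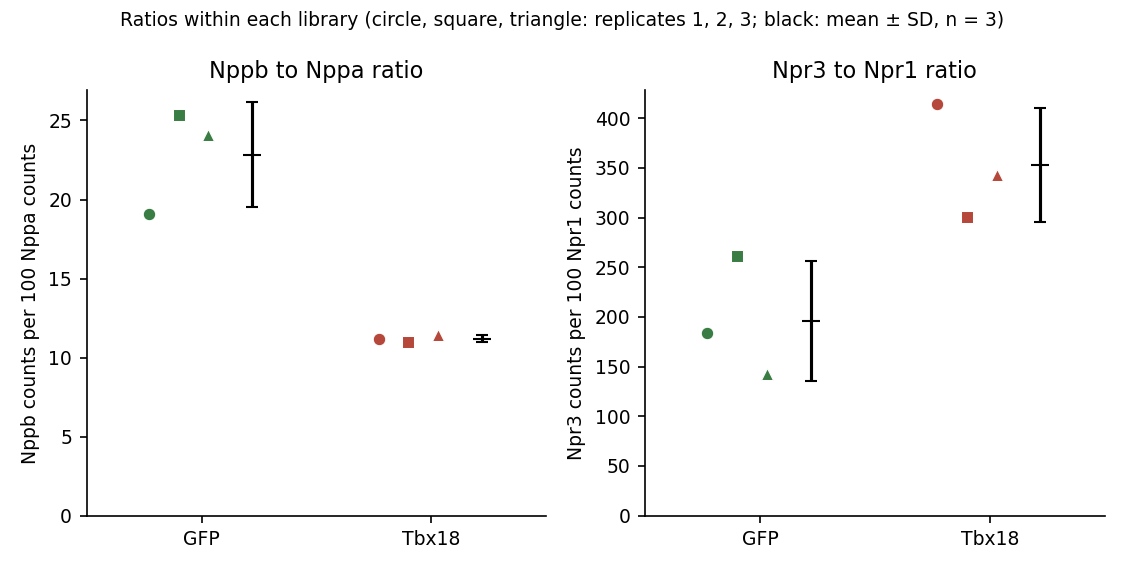
Counts of Nppb per 100 counts of Nppa (left) and of Npr3 per 100 counts of Npr1 (right) within each of the 6 libraries, with the mean ± SD in black. The 3 Tbx18 libraries lie at 11.0 to 11.4 for the first ratio, all below GFP, and at 301 to 414 for the second, all above GFP.

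Marker lists of heart muscle and of other cell types moved with these results. The summed counts of 7 heart muscle markers (Myh6, Tnnt2, Tnni3, Actn2, Ryr2, Mybpc3, Actc1) ran from 1067324 to 1124505 in GFP and from 511878 to 527788 in Tbx18, 2.11-fold lower, with 6 of 7 called lower; all were well detected, so the labelled cell type was present in both groups. Most of the fall in the heart muscle sum came from Actc1 (514685 ± 23641 to 173899 ± 6559). Fibroblast markers summed to 234009 to 270860.4 counts in GFP and 497484 to 582652 in Tbx18, with 7 of 8 called higher. Col1a1 and Col3a1 held most of these counts, while Col1a2 was at 12.6 ± 8.96 and 18.0 ± 8.12 and was not called. Epicardial and mesothelial markers summed to 707 to 958 counts in GFP and 3721 to 4431 in Tbx18, with 5 of 6 tested members called higher; Bnc1 was at 0 in at least 1 library. Most of the rise in summed counts came from the keratin genes Krt8 (223 ± 57.2 to 2662 ± 353) and Krt18 (289.8 ± 86.2 to 874 ± 53.6). Aldh1a2 (3.19-fold higher), Krt19 (2.76-fold higher) and Msln (1.88-fold higher) were called as well, at lower counts. Wt1, a defining epicardial factor, was at 108 ± 24.2 and 137 ± 22.6 and was the only tested marker of this list not called. Smooth muscle and pericyte markers lay at 74964 to 111180.2 and 119217 to 131102 counts, with 5 of 8 called higher. Most of these counts came from Acta2 (56794 ± 16329 and 68059 ± 4181, not called) and Tagln (29944 ± 1782 and 41874 ± 664). Endothelial markers, at 1650 to 2509 and 2451 to 2546 counts, overlapped between groups in their sum, with 5 of 8 called higher and 1 lower. Macrophage and leukocyte markers (603 to 1172 and 1020 to 1448 counts) had 3 of 8 called higher, and neural and Schwann markers (975 to 1065 and 1251 to 1352 counts) had 2 of 4 tested called higher and 1 lower, with Th at 0 in at least 1 library. The neural and Schwann sum rose mainly with Tubb3 (545 ± 56.7 to 1126 ± 54.5), and S100b was also called higher. Dbh was the marker called lower, falling from 364 ± 24.8 to 36.6 ± 10.8. The part of these shifts in the changes of the natriuretic genes was not tested.

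Set against the heart muscle markers of the same library, a ratio chosen after the values were seen, Nppb was lower in Tbx18 whichever of the 7 markers was used, whereas the difference in Nppa depended on the marker. Nppa gave 28.9, 29.3 and 24.4 counts per 100 summed marker counts in GFP and 17.5, 19.7 and 15.9 in Tbx18, 1.55-fold lower. Nppb gave 5.50, 7.42 and 5.87 in GFP and 1.96, 2.15 and 1.82 in Tbx18, 3.17-fold lower. Neither ratio overlapped between the groups (exact two-sided permutation p = 0.1 for each, the smallest possible). The markers themselves fell unequally, from 1.33-fold for Myh6, which was not called, to 2.96-fold for Actc1. Against single markers, alternatives added after the values were seen, Nppa was 1.11-fold lower (Actc1) to 2.49-fold lower (Myh6), and Nppb 2.26-fold to 5.09-fold lower. The result for Nppb also holds only for the markers listed. Myh7, a heart muscle myosin gene outside that list, fell from 235206 ± 17340 to 39582 ± 2848 normalized counts. Its log2 fold change of -2.57 was close to the -2.73 of Nppb, and no ratio to Myh7 was taken. Against Actc1 alone the Nppa ratios overlapped between the groups, at 60.3, 61.0 and 54.9 counts of Nppa per 100 counts of Actc1 in GFP and 52.6, 56.8 and 49.6 in Tbx18 (exact two-sided permutation p = 0.2). Per 100 summed marker counts, Corin was 5.70-fold, Npr1 4.31-fold, Npr2 2.61-fold and Npr3 8.19-fold higher in Tbx18, a scale on which the fall of the markers itself raises each ratio.

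**Figure D4:**
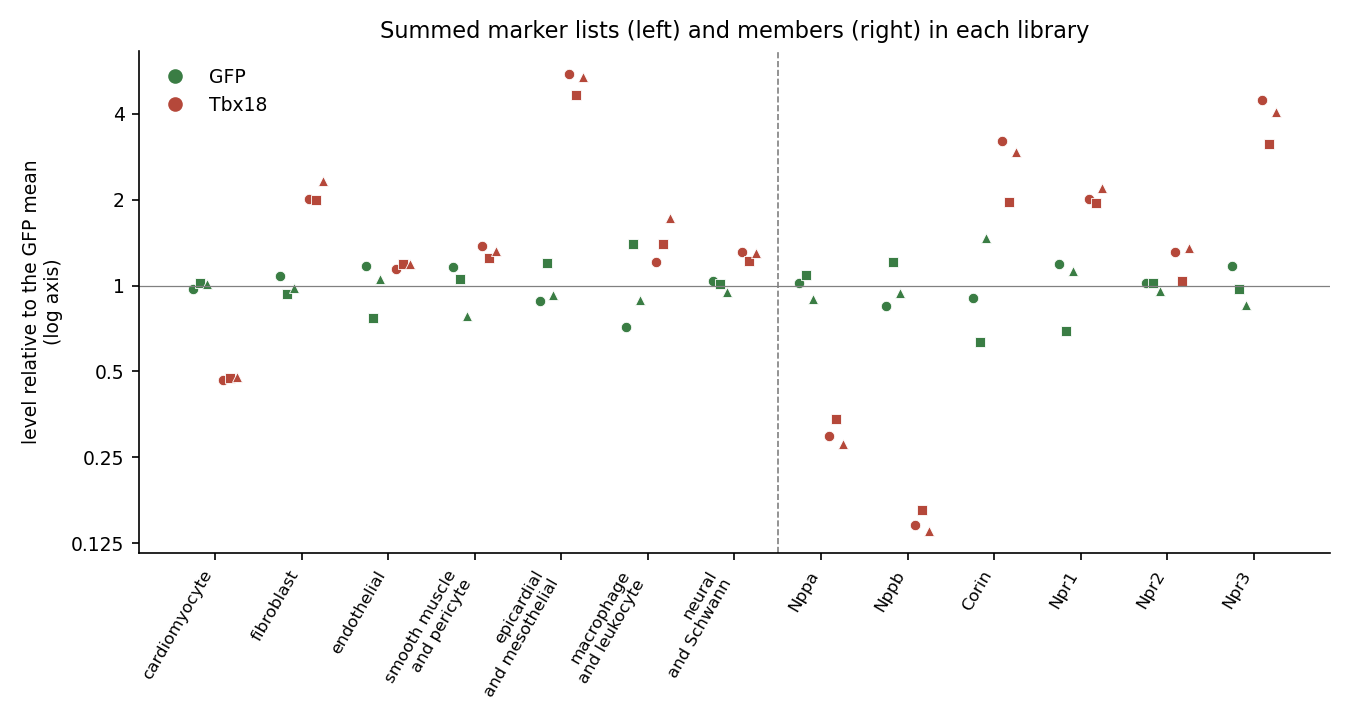
Summed counts of 7 marker lists (left of the dashed line) and counts of the 6 tested members (right) in each library, divided by the GFP mean of each, on a log axis; green is GFP, red is Tbx18. Heart muscle markers lie 2.11-fold lower in Tbx18, Nppa and Nppb lie lower still, and fibroblast and epicardial markers lie above the GFP mean, as do Npr3, Corin and Npr1.

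Other genes of peptide processing and breakdown were taken from a fixed list of 8 symbols. Of 5 tested, 1 was called higher and 3 lower, and 1 missed the threshold, with a median log2 fold change of -0.40 against 0.01 for all genes. The shares were 20% higher and 60% lower, beside 22.5% and 23.5% of all tested genes, over only 5 genes. Pcsk6, a convertase known to activate corin, fell 3.73-fold, from 2590.3, 2750.3 and 4004 normalized counts in GFP to 847, 779 and 877 in Tbx18. It thus moved against Corin itself (log2 fold change -1.87, SE 0.15, limma adjusted p = 1.99e-05). Pam, a membrane enzyme abundant in atrial secretory granules, fell 2.59-fold from 52152 ± 2569 to 20172 ± 857. Ide, a peptidase that degrades insulin and natriuretic peptides, fell from 2447 ± 163 to 1855 ± 26.9 normalized counts (log2 fold change -0.40, limma adjusted p = 0.00300), a call lost with equal reads (-0.13, adjusted p = 0.228; range over alternatives 0.000228 to 0.228).

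Mme, which encodes neprilysin, a protease that breaks natriuretic peptides down, rose 2.82-fold. It was read at 51.1, 49.4 and 26.5 normalized counts in GFP and at 114, 99.4 and 144 in Tbx18, so the groups were apart (log2 fold change 1.51, SE 0.27, limma adjusted p = 0.00163). Furin, the convertase that cuts the precursors of the brain and C-type peptides, was at 4444 ± 839 and 5644 ± 542 and was not called (log2 fold change 0.36, limma adjusted p = 0.0588). Furin was called higher without GFP replicate 1 (adjusted p = 0.0289), without GFP replicate 3 (adjusted p = 0.0314) and under 5 other settings given in the closing section (range over alternatives 0.00710 to 0.192). Ostn, an alternative ligand of the clearance receptor, and Mep1a were listed at 0 in every library, and Dpp4 was below the filter.

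Downstream of the receptors, genes that make, break down or respond to cyclic GMP included calls in both directions. Of 15 tested, 7 were called higher, 3 lower and 5 neither, with a median log2 fold change of 0.10. The shares were 46.7% higher and 20% lower, beside 22.5% and 23.5% of all tested genes. The rises included Mrvi1, a substrate of the cyclic GMP kinase now called Irag1, 2.83-fold from 270.2 ± 41.9 to 766 ± 103 normalized counts (limma adjusted p = 4.93e-05). Pde1a, a phosphodiesterase, rose 2.65-fold from 61.8 ± 10.4 to 164 ± 12.3. Gucy1a2, a subunit of soluble guanylyl cyclase, which makes cyclic GMP in response to nitric oxide, rose from 6.34 ± 3.36 to 19.9 ± 3.32 (limma adjusted p = 0.0163). That call rested on few reads and was lost without Tbx18 replicate 1 (adjusted p = 0.0690), without Tbx18 replicate 3 (adjusted p = 0.0587) and after quantile normalization (adjusted p = 0.171); the range over its 18 alternatives was 0.00799 to 0.171.

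Pde2a, a phosphodiesterase that cyclic GMP itself stimulates, fell 2.79-fold, from 1153 ± 93.7 to 413 ± 11.6 normalized counts (log2 fold change -1.48, SE 0.10, limma adjusted p = 8.37e-06). Ppp1r12a, the myosin phosphatase targeting subunit, fell 1.66-fold, and Abcc4, an exporter of cyclic nucleotides, fell 1.5-fold, from 1096 ± 210.01 to 731 ± 19.7 (limma adjusted p = 0.00745), a call lost with equal reads (adjusted p = 0.113; range over alternatives 0.000416 to 0.113). The cyclic GMP kinase gene Prkg1 lay at 163 ± 12.9 and 164 ± 21.0 and was not called (log2 fold change 0.0085, limma adjusted p = 0.968).

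Transcription factors known to act on Nppa or Nppb showed 6 members lower, 3 higher and 11 not called among 20 tested, with a median log2 fold change of -0.09. The 45% called is near the 46.0% called over all tested genes. Myocd, a cofactor of serum response factor, fell 2.36-fold from 1334 ± 260 to 564 ± 103. Tbx20, a T-box factor of the working myocardium, fell 2.41-fold, from GFP libraries that ranged from 1484 to 3295 to Tbx18 libraries at 933 to 1095 normalized counts (log2 fold change -1.20, SE 0.23, limma adjusted p = 0.00243). Gata4, which binds the peptide promoters, fell 1.36-fold from 6375 ± 203 to 4682 ± 58.2 normalized counts (log2 fold change -0.44, limma adjusted p = 0.000947), a call lost with equal reads (-0.18, adjusted p = 0.0603; range over alternatives 9.49e-07 to 0.0603). Nkx2-5 had a log2 fold change of -0.54. Whether these factors had a part in the fall of Nppa or Nppb was not tested.

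Tbx5, a T-box activator of Nppa, was at 183 ± 24.8 and 220.1 ± 27.3 normalized counts, overlapped between groups and was not called (log2 fold change 0.27, limma adjusted p = 0.178); it was called higher with equal reads (0.53, adjusted p = 0.0175; range over alternatives 0.0175 to 0.486). Tbx2 and Tbx3, T-box repressors of Nppa, were called higher, by log2 fold changes of 0.80 and 0.79 (limma adjusted p = 0.0225 and 0.0254), from 32.1 ± 8.72 to 55.4 ± 2.90 and from 41.9 ± 11.5 to 71.5 ± 7.46. The calls of both genes were lost after quantile normalization and without GFP replicate 3, Tbx18 replicate 1, Tbx18 replicate 2 or Tbx18 replicate 3. The adjusted p spanned 0.00445 to 0.341 for Tbx2 and 0.00656 to 0.239 for Tbx3 across their alternatives. With GFP replicate 3 left out it was 0.0535 for Tbx2 and 0.0591 for Tbx3. With Tbx18 replicate 1, 2 or 3 left out it was 0.0748, 0.0558 and 0.0756 for Tbx2 and 0.0666, 0.0537 and 0.0958 for Tbx3. Nfatc4, an effector of calcineurin, rose 1.84-fold from 251 ± 23.9 to 462 ± 78.5.

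Jun, a subunit of AP-1, was called lower (log2 fold change -0.73, limma adjusted p = 0.0295) although its groups overlapped, at 4427 ± 1717 in GFP and 2525 ± 143 in Tbx18. That call was lost without GFP replicate 2 (adjusted p = 0.0920), without GFP replicate 3 (adjusted p = 0.0785), without Tbx18 replicate 1 (adjusted p = 0.0716), without Tbx18 replicate 2 (adjusted p = 0.0561) and without Tbx18 replicate 3 (adjusted p = 0.0914). It was also lost with equal reads, quantile normalization and no intensity trend (range over alternatives 5.47e-05 to 0.108).

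The genes that flank the Nppb and Nppa pair were called at a share near that of all genes. Of the 5 protein-coding genes on each side in the reference order, 5 were tested, 2 were called lower and 3 were not called, with a median log2 fold change of -0.05. That is 40% called, beside 46.0% of all tested genes. Clcn6, a chloride transporter gene next to Nppa, was read at 290.3 ± 53.4 and 313 ± 22.1 normalized counts (log2 fold change 0.12, limma adjusted p = 0.527). RGD1305350, the next gene on the side of Nppb, was at 1573 ± 74.7 and 1355 ± 14.5 (log2 fold change -0.21, limma adjusted p = 0.0469). That call was lost in 12 of 19 alternatives (adjusted p from 0.0270 to 0.642), with the sign turned at equal reads (0.049), among them those without GFP replicate 1 (adjusted p = 0.0695), GFP replicate 3 (adjusted p = 0.106) and Tbx18 replicate 1, 2 or 3 (adjusted p = 0.133, 0.144 and 0.103). Mfn2, a mitochondrial fusion gene further out, fell 1.5-fold from 1578 ± 266 to 1053 ± 77.8, a call lost with equal reads (adjusted p = 0.0906; range over alternatives 0.000177 to 0.0906).

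**Figure D5:**
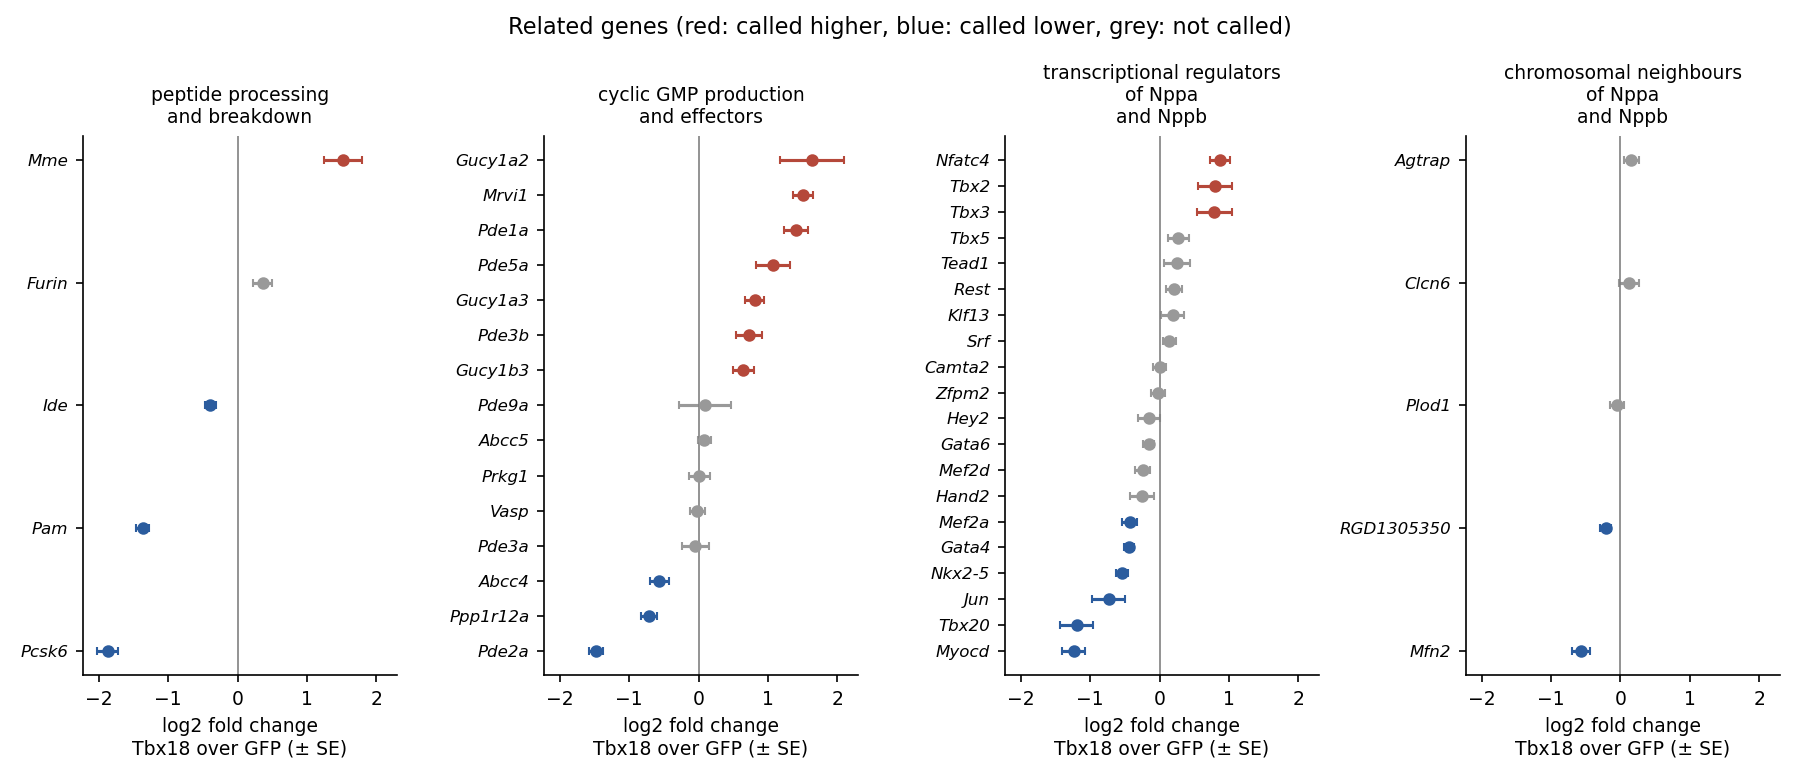
Log2 fold changes with SE, Tbx18 over GFP, of the tested genes in 4 lists, red where called higher, blue where called lower and grey where not called. Pcsk6, Pam and Pde2a lie below -1 while Mme, Mrvi1 and Pde1a lie above 1, and the 5 tested neighbours of Nppa and Nppb all lie between -0.57 and 0.16.

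The genes whose profiles over the 6 libraries were most like those of the members were taken by the smallest root mean square difference of centred log2 values, among 9228 genes whose mean normalized count reached 100. For Nppa these were Sgms1, a sphingomyelin synthase, Tmeff1, a membrane protein, Fhl1, a LIM protein of muscle, Actc1, cardiac alpha-actin, and RGD1304931, at differences of 0.10 to 0.11. Actc1 is also one of the heart muscle markers used above. For Nppb they were Myh7, the slow myosin heavy chain, at 0.14, Gja1, the main gap junction protein of the ventricle, at 0.18, Ddn, dendrin, at 0.19, and Ddc, an amine-forming decarboxylase, and Dusp15, a phosphatase, both at 0.22. For Npr3 they were Itga8, an integrin subunit, at 0.12, Gdf6, a ligand of the bone morphogenetic protein family, at 0.13, Cdh11, a mesenchymal cadherin, at 0.14, Heph, an iron oxidase, and Itga11, a collagen-binding integrin, both at 0.16. Since all 6 libraries fall into the same 2 groups, this measure rests mostly on the size of the group difference.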

How the data were processed

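Per the file headers and the file name, the authors deposited DESeq2-normalized counts, a signal in which the gene read counts of each library were divided by 1 size factor. Per the labels' protocols, 100 ng of total RNA went into each TruSeq stranded mRNA library, sequenced as paired reads of 101 bp. Per the submitters' processing notes, DESeq2 1.10.1, HTSeq, STAR 2.4.0g1 and bcl2fastq 2.17.1.14 were used, with no roles stated; which genome build, annotation and strand setting served is not given in the sources used. Every deposited signal value was a whole multiple of its column's smallest step within 0.01 (100% of values), so reads could be recovered. Groups came from the sample titles.

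Groups were compared on log2(normalized count + 1) by limma 3.58.1 (R 4.3.3) using an intensity trend. The test covered 11230 genes whose mean reached 10, adjusted by Benjamini-Hochberg over all of them; genes under 0.05 were called. This was tested on simulated data. In the simulation few genes changed and all genes shared the same relative scatter, which differs from these data. On recovered reads, edgeR 4.0.16 called 5206 genes and DESeq2 1.42.0 called 5096, against 5164 by limma. Other alternatives changed scaling, pseudocount, filter and limma settings, added a replicate block or left out each library. From each of 4 lists of related genes, up to 3 called genes in each direction with the largest change are named, plus Furin, Mme, Gata4, Nkx2-5, Tbx5 and Tbx20 whatever their result; Prkg1 and Clcn6 were added after their values were seen. For likeness, the 5 nearest genes are named; 7 marker lists were also used. List symbols without a row in the table are not analysed here. One marker gene of the neural and Schwann list is not reported here and was left out of its sum. Members and lists were chosen with earlier results of these data known.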

Additional observations from a re-analysis of the deposited data

How the results depend on the processing

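Over 19 alternatives each, Nppa, Nppb, Corin, Npr1 and Npr3 kept their direction and their call; 2 members were called lower in each, and 3 or 4 higher. Log2 fold changes ran from -1.80 to -1.01 for Nppa, -2.84 to -2.35 for Nppb, 1.19 to 1.79 for Corin, 0.72 to 1.32 for Npr1 and 1.79 to 2.21 for Npr3. Npr2 was called with equal reads (0.56) and upper-quartile scaling (0.37), and lay between 0.22 and 0.42 with 1 library left out. The Nppb to Nppa ratio ran from -1.14 to -0.94 and the Npr3 to Npr1 ratio from 0.67 to 1.11 in log2 difference. Against single heart muscle markers, added after seeing the data, the log2 difference ran from -1.31 to -0.15 for Nppa and -2.32 to -1.17 for Nppb. With equal reads 4770 genes were called higher and 1351 lower in place of 2525 and 2639; with 1 library left out 1891 to 2900.0 were higher and 2060.0 to 2968 lower. Equal reads also gave 7 regulators higher and 3 lower, 1 neighbour higher and 0 lower, and turned RGD1305350 to 0.049, relative to a shift of 0.27 in all genes. Of the processing list, 2 were higher with equal reads, upper-quartile scaling, quantile normalization, DESeq2 and the replicate block, Furin being the added gene, and 1 to 2 with 1 library left out. Regulators called higher numbered 1 to 5 with 1 library left out. Neighbours called lower numbered 1 with upper-quartile scaling, quantile normalization, no intensity trend, edgeR, DESeq2 and the replicate block, and 1 to 2 with 1 library left out. The cause of these shifts was not tested. Depth limits Nppc most, with 3 reads in all GFP libraries. Strand use in the counting is unknown, so reads of overlapping genes may be shared.

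Whether the replicate numbers pair the samples is not known. Deviations of same-numbered libraries correlated at -0.0047, 0.15 and 0.016, and not every library correlated best with its own number. So few values, each taken from its own group mean, cannot exclude a pairing. With the replicate block 2527 genes were called higher and 2628 lower, and the members called were 3 higher and 2 lower.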
